A study of Arabidopsis thaliana with 18 samples.

Results

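RPS12 is a ribosomal protein (r-protein) of the small cytosolic subunit, and Arabidopsis carries RPS12A (AT1G15930), RPS12B (AT1G80800) and RPS12C (AT2G32060). RefSeq annotates RPS12A and RPS12C as protein coding and RPS12B as a transcribed pseudogene. Each gene has a probe set of its own. The S12 family was selected on measured values, namely the wild-type translation states, in which it covered the widest range of all r-protein families. It holds 3 of the 216 probe sets for cytosolic r-proteins, 3 of the 86 for the small subunit and 3 of the 22746 on the array. Those wild-type values, and the contrasts of TL that include them, are therefore given below as a description, with no test. Tests in polysomal and nonpolysomal RNA use the wild-type signals that make up those values and are not independent of the choice.

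Cytosolic ribosomes of plants are built from r-proteins that are each encoded by a small family of nuclear paralogs, so that a single protein can be made from several mRNAs. The RPS12 protein, called eS12 in the nomenclature shared between organisms, sits in the beak of the small subunit's head beside RPS10 and RPS27a, and in Drosophila RpS12 is known for its part in competition between cells that differ in r-protein gene dose. It is unrelated to the plastid and mitochondrial proteins also named RPS12, whose cytosolic counterpart is RPS23. An mRNA with several ribosomes sediments deep in a sucrose gradient, whereas a free or singly occupied mRNA stays near the top, and the ratio between both parts describes its ribosome occupancy.

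Affymetrix ATH1 arrays measured the RNA of aerial seedling parts from the rpl24b mutant and from wild type (WT). There were 3 plant samples per genotype, with the mutant grown alongside wild type. From every plant sample total RNA (TC), the polysomes (PL) and the remainder of the gradient with free mRNA and monosomes (NP) were hybridised, which made 18 arrays in 6 groups of 3, a number that limits the precision. Plants of both genotypes were 10 to 12 days old, grew on Murashige and Skoog agar with 1% sucrose at 22 °C under 16 h of light and 8 h of dark, and were harvested 6 h into the light. The mutant carries the stv1-1 allele in the Ws ecotype, a deletion that removes RPL24B, a gene for L24 of the large subunit, together with several neighbouring genes, and it carries at that locus a transgene for the small MYB protein CAPRICE. No label states which ecotype the WT plants of these arrays had. The methods name Columbia for WT plants in general but also speak of a corresponding WT for the mutant, and for a Columbia WT strain and genotype cannot be told apart.

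The labels were checked on RPL24B, whose TC signal was 3.62 ± 0.17 in rpl24b and 10.12 ± 0.14 in WT (log2, SD, n = 3 each). Of the leaf genes taken as markers only RCA, for Rubisco activase, was named here, at 13.90 to 13.99 in rpl24b and 13.92 to 13.94 in WT. Of the root genes, EXPA7 and PER27 stayed between 2.55 and 4.12, while PYK10, a beta-glucosidase gene of roots and seedlings, lay at 10.20 to 10.68 in rpl24b and 10.39 to 10.58 in WT. The NP array of WT replicate 2 had a median signal of 4.65, against 4.90 to 5.07 in the other PL and NP arrays, so NP and TL results are also given without that replicate. In such bulk RNA, fewer cells of a type and less RNA per cell cannot be told apart.

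The RPS12 mRNAs occupied very different places in the gradient in both genotypes. Translation state (TL) was taken for each plant sample as the log2 signal in PL less that in NP. It is positive for an mRNA with the stronger signal in polysomes and, because it is a ratio within one probe set, it can be set beside that of another gene. A TL of 0 marks an equal signal on both arrays, not equal numbers of molecules.

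RPS12C was the well loaded paralog. Its TL was 1.04, 0.87 and 0.47 in rpl24b replicates 1, 2 and 3, against 0.85, 1.21 and 1.19 in those of WT. All 6 plant samples had the stronger signal in polysomes, and the genotypes overlapped. The mean of 0.79 ± 0.29 in rpl24b (SD, n = 3) corresponds to a PL signal 1.73-fold that of NP, and the mean of 1.08 ± 0.20 in WT to 2.12-fold.

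RPS12A lay near 0 in the mutant and below it in wild type. Its TL was -0.13, -0.22 and -0.01 in rpl24b and -0.81, -0.86 and -0.47 in WT, or -0.12 ± 0.11 in rpl24b and -0.71 ± 0.21 in WT on average. All rpl24b samples were above all WT samples, as was the case for 7.08% of all probe sets.

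RPS12B, the pseudogene copy, gave by far the stronger signal outside polysomes. Its TL was -3.24, -2.51 and -3.21 in rpl24b and -2.66, -2.25 and -2.87 in WT. The genotypes overlapped, with rpl24b replicate 2 inside the WT range and the other rpl24b samples below it. With means of -2.99 ± 0.42 in rpl24b and -2.59 ± 0.31 in WT, the NP signal was 7.92-fold that of PL in rpl24b and 6.04-fold in WT. The PL signals of RPS12B, between 4.63 and 5.43, stood close to the array medians, and whether they were above background was not tested.

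**Figure D1:**
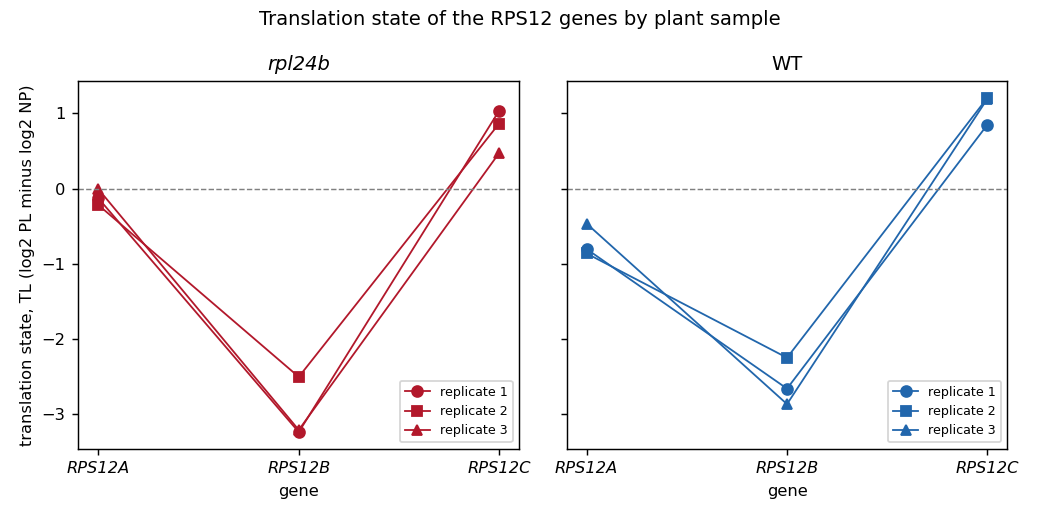
TL (log2 of the PL over the NP signal) of RPS12A, RPS12B and RPS12C in each plant sample, with rpl24b on the left and WT on the right. Symbols are replicates, lines join the genes of one plant sample, and the dashed line marks equal PL and NP signal. RPS12B lies lowest and RPS12C highest in all 6 plant samples, and RPS12A lies near 0 in rpl24b only.

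The mutant samples were not used to choose the family, so their TL was tested against 0 with limma across all probe sets. RPS12C passed with the stronger signal in PL (0.79 ± 0.14, SE, 95% interval 0.49 to 1.09, adjusted p = 6.05e-04) and RPS12B with the stronger signal in NP (-2.99 ± 0.17, SE, 95% interval -3.35 to -2.63, adjusted p = 1.80e-07). Of all probe sets, 18.8% passed with PL higher and 18.3% with NP higher, so passing alone does not set the paralogs apart. RPS12A did not pass (-0.12 ± 0.12, SE, 95% interval -0.39 to 0.15, adjusted p = 0.521), but quantile normalization moved it to -0.34 with an adjusted p of 0.0376.

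By its size the RPS12B value stood at the lower edge of the distribution. In rpl24b only 7, 30 and 15 of the 22746 probe sets had a lower TL in replicates 1, 2 and 3, and in WT 15, 82 and 13. RPS12B had the lowest mean TL of all 216 cytosolic r-protein probe sets in rpl24b and the 2nd lowest in WT. RPS12A ranked 40th from the bottom in rpl24b and 19th in WT, and RPS12C ranked 71st from the top in rpl24b and 26th in WT. Among all probe sets, 7729 to 11152 lay below RPS12A in the rpl24b samples and 1437 to 3590 in the WT samples.

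RPS12B also stood below the other r-protein copies that RefSeq annotates as pseudogenes. There were 7 such copies on the array, namely RPL4B, RPL5C, RPL13A, RPL21F, RPS9A, RPS25C and RPS12B. In the mutant, RPS25C was the only other one to pass the test against 0, with NP higher by 0.63 (TL -0.63 ± 0.12, SE, adjusted p = 0.00118 by limma). Over all probe sets 18.3% passed with NP higher, so this count does not set the copies apart. The 6 copies other than RPS12B had mean TL values between -0.63 and 0.05 in rpl24b, with a median of -0.08. The median over all 216 cytosolic r-protein probe sets was 0.43, so that the 6 copies lay below it as well. Over all 22746 probe sets the median was -0.04, and the median of the 6 copies lay close to that. Whether the signals of the 6 copies were above background was not tested.

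Within a family, the mean TL of the highest minus that of the lowest paralog gives its range. For S12 it was 3.78 in rpl24b and 3.68 in WT, set by RPS12C and RPS12B in both genotypes. It was the widest of 74 families with at least 2 probe sets in rpl24b as well as in WT. P0, a protein of the ribosomal stalk, came next with 2.67 in rpl24b and 3.44 in WT, and it is the family just outside the choice. S15a followed with 2.34 in rpl24b and 3.24 in WT. The median range over the 74 families was 0.752 in rpl24b and 0.958 in WT. Families picked as widest in WT can be narrower in another set of samples by that choice alone, so the lower mutant values of the other families are not read as a difference.

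**Figure D2:**
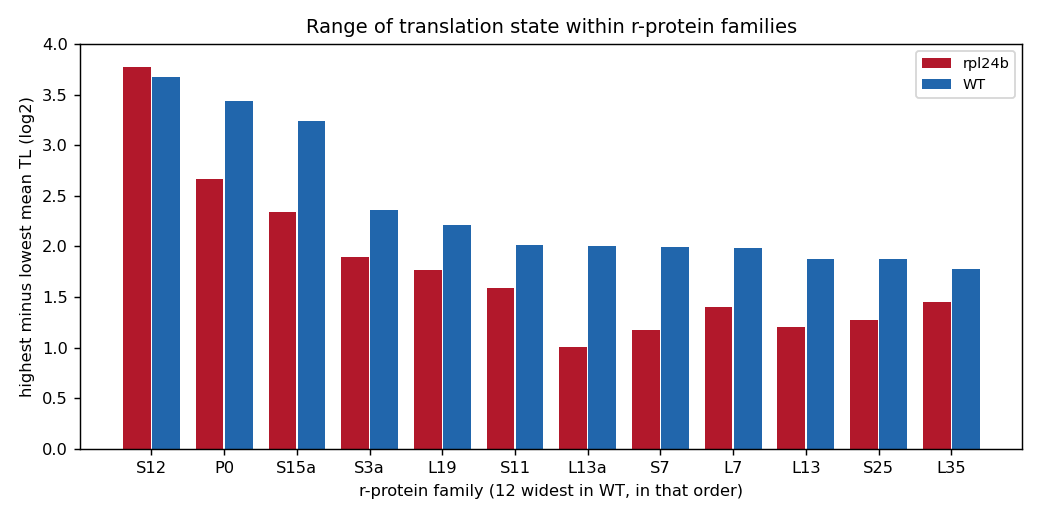
Range of mean TL (log2) within the 12 r-protein families that are widest in WT, ordered by the WT value, with rpl24b as the left and WT as the right bar of each pair. S12 reaches 3.78 in rpl24b and 3.68 in WT, against 2.67 in rpl24b and 3.44 in WT for P0.

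The amount of each mRNA was compared between rpl24b and WT plants in total RNA, which played no part in the choice of the family. RPS12A and RPS12C rose in the mutant and RPS12B fell. RPS12A had TC signals of 11.11, 10.999 and 11.31 in rpl24b and 10.82, 10.61 and 10.65 in WT (log2, replicates 1, 2 and 3). RPS12C had 9.51, 9.61 and 10.06 in rpl24b and 9.28, 8.92 and 9.27 in WT. RPS12B had 5.80, 5.77 and 5.67 in rpl24b and 6.21, 6.35 and 5.94 in WT. These RPS12B signals exceeded those of only 54.1% to 55.5% of probe sets in rpl24b and 57.9% to 63.9% in WT. Whether they were above background was not tested. For none of the genes did the genotypes overlap, with rpl24b higher for RPS12A and RPS12C and lower for RPS12B. Over all probe sets 18.5% had all rpl24b samples above all WT samples in TC and 15.7% had them below.

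The changes in TC were tested with limma, adjusted over all probe sets, of which 16.3% passed (8.40% higher and 7.91% lower in rpl24b). RPS12A rose by 0.45 ± 0.11 (log2, SE, 1.36-fold, adjusted p = 0.0291) and RPS12C by 0.57 ± 0.16 (1.49-fold, adjusted p = 0.0440). RPS12B fell by 0.42 ± 0.12, or 1.34-fold (adjusted p = 0.0459). All 3 calls lay close to the threshold, and leaving out single samples ended them. The RPS12A call was lost without rpl24b replicate 1 or 3 or WT replicate 2 or 3 (changes of 0.36 to 0.46, adjusted p = 0.0645 to 0.106). The RPS12B call was lost without any of the rpl24b replicates or WT replicate 1 or 2 (-0.45 to -0.33, adjusted p = 0.0839 to 0.156) and with trend and robust moderation (adjusted p = 0.0503), and that of RPS12C without rpl24b replicate 2 or 3 or any of the WT replicates (0.41 to 0.64, adjusted p = 0.0677 to 0.149).

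The distance between paralogs was compared directly, by taking the difference of both genes within each plant sample and testing it between genotypes with an exact two-sided permutation test, whose smallest possible p for 3 against 3 is 0.1. There were 6 such comparisons, 3 in TC and 3 in TL. Those in TL are given below without a test, although their p-values entered the adjustment over the 6. RPS12A minus RPS12B in TC was 0.87 greater in rpl24b than in WT (exact p = 0.1, adjusted over the 6 comparisons 0.2), and RPS12C minus RPS12B was 0.99 greater (exact p = 0.1, adjusted 0.2). The genotypes did not overlap in either. In TC that held for 53.6% of the 224 pairs of probe sets from one r-protein family, so it does not set these pairs apart. RPS12C minus RPS12A differed by 0.13 between genotypes (exact p = 0.5, adjusted 0.6), and the samples overlapped.

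**Figure D3:**
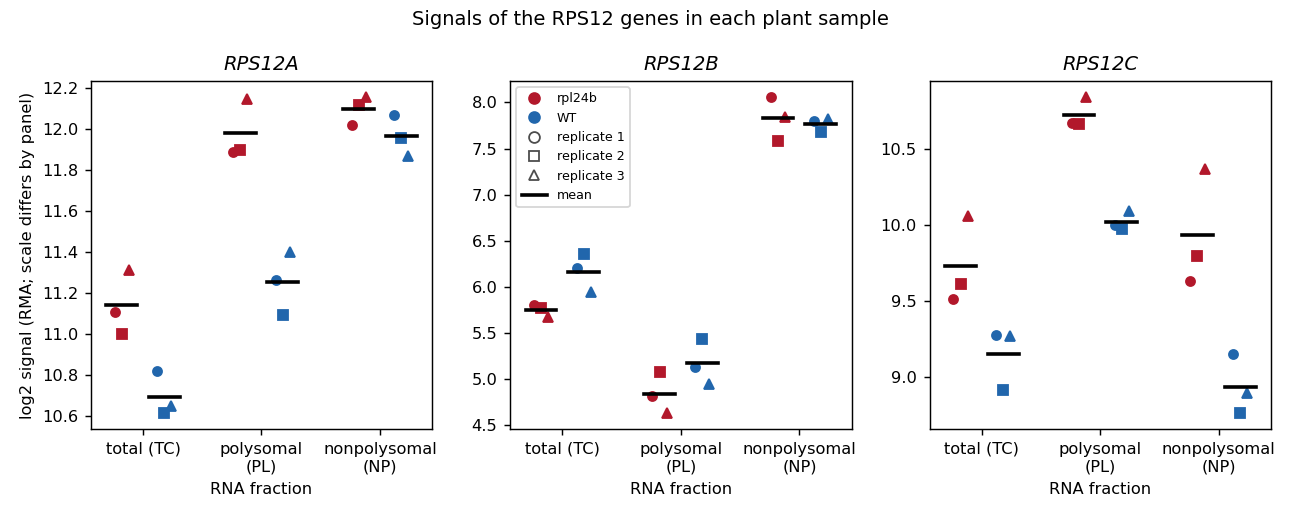
Signals (log2, RMA) of each RPS12 gene in total (TC), polysomal (PL) and nonpolysomal (NP) RNA, with one panel and one vertical scale per gene. Red symbols to the left are rpl24b and blue symbols to the right are WT, shapes are replicates and black bars are means of 3. RPS12A and RPS12C are higher in rpl24b in TC and PL without overlap, RPS12C also in NP, and RPS12B is lower in TC.

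The polysomal and nonpolysomal arrays showed which side of the ratio moved. Their wild-type signals make up the wild-type TL on which the family was selected, so the tests in PL and NP are not independent of that choice. In PL, RPS12A had 11.89, 11.90 and 12.15 in rpl24b and 11.26, 11.09 and 11.40 in WT, and RPS12C had 10.67, 10.66 and 10.84 in rpl24b and 10.00, 9.97 and 10.09 in WT. Both mRNAs were higher in every mutant sample than in any wild-type sample, as were 18.8% of all probe sets in PL. RPS12A rose by 0.73 ± 0.12 (log2, SE, 1.66-fold, adjusted p = 0.00266) and RPS12C by 0.70 ± 0.10 (1.63-fold, adjusted p = 0.00132), where 18.7% of all probe sets passed and 10.8% passed as higher. Both calls held in all 11 alternatives tried.

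RPS12B did not pass the test in PL. Its PL signals were 4.82, 5.07 and 4.63 in rpl24b and 5.14, 5.43 and 4.95 in WT, and they overlapped. The change of -0.33 ± 0.15 did not pass (95% interval -0.67 to 0.01, adjusted p = 0.170). Samples with the same replicate number differed by -0.32, -0.36 and -0.32, and with the replicate number as a block in limma the adjusted p was 0.0449. Of all probe sets 7.87% passed as lower in PL without that block.

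In NP, RPS12C passed the test and the other members did not, and the difference between members was not tested there. RPS12C had the highest wild-type TL of the family, so the choice favoured a low WT signal of it in NP. How much of its rise in NP comes from that choice was not tested. RPS12C had 9.63, 9.79 and 10.37 in rpl24b and 9.15, 8.76 and 8.89 in WT, with no overlap, rpl24b being higher as in 17.6% of all probe sets, and it rose by 1.00 ± 0.21 (log2, SE, 1.99-fold, adjusted p = 0.0152). Among all probe sets 8.60% passed in NP and 5.21% as higher. The call ended without WT replicate 3 (0.97, adjusted p = 0.0536) and held without WT replicate 2, the array with the low median (0.91, adjusted p = 0.0289).

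RPS12A had NP signals of 12.02, 12.12 and 12.16 in rpl24b and 12.07, 11.95 and 11.87 in WT, and RPS12B had 8.06, 7.58 and 7.84 in rpl24b and 7.80, 7.68 and 7.82 in WT. Both overlapped between genotypes. Neither change passed, at 0.13 ± 0.14 for RPS12A (95% interval -0.18 to 0.45, adjusted p = 0.636) and 0.06 ± 0.16 for RPS12B (95% interval -0.30 to 0.42, adjusted p = 0.877). The sign of both turned when each array was centred on its median (-0.0172 for RPS12A and -0.0922 for RPS12B), so no direction is given for them. Without WT replicate 2 they were 0.13 for RPS12A and 0.0173 for RPS12B.

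**Figure D4:**
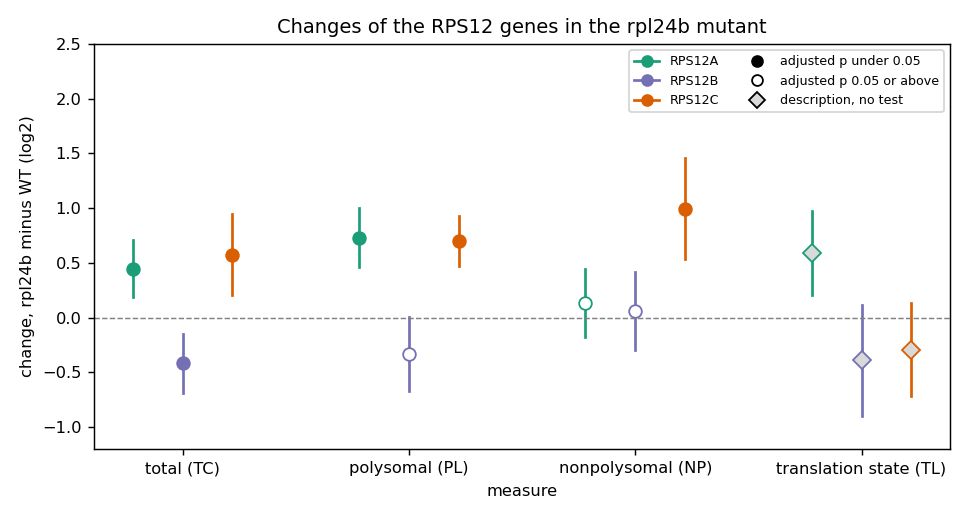
Change of each RPS12 gene, rpl24b minus WT (log2), in TC, PL, NP and TL with 95% intervals from limma. Filled circles passed an adjusted p of 0.05 over all probe sets, open circles did not, and grey diamonds in TL are a description with no test. The intervals in TL include the WT values that selected the family and are not read against 0. RPS12A and RPS12C are filled in TC and PL, RPS12C in NP, and RPS12B in TC only. The WT signals in PL and NP entered the choice of the family.

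The TL of both genotypes was also set side by side. As the WT values entering this contrast are those on which the family was selected, the changes in TL are a description and carry no test. For RPS12A the change was 0.59 ± 0.18 (log2, SE from limma), and the same-numbered pairs differed by 0.68, 0.65 and 0.46. The value was 0.52 without WT replicate 2 and lay between 0.51 and 0.72 in the 12 alternatives.

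For RPS12B it was -0.39 ± 0.23, with same-numbered pairs at -0.58, -0.26 and -0.34. Single samples moved it, to -0.63 without rpl24b replicate 2 and to -0.22 without WT replicate 2. For RPS12C it was -0.29 ± 0.20, with pairs at 0.19, -0.34 and -0.72 that did not share a sign. That value was -0.13 without rpl24b replicate 3 and -0.23 without WT replicate 2.

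The distance in TL between paralogs includes the same WT values and is likewise a description. RPS12C minus RPS12A was 1.17, 1.08 and 0.48 in rpl24b and 1.65, 2.07 and 1.66 in WT. The genotypes did not overlap, as in 42.4% of the 224 pairs of probe sets from one r-protein family. The means of 0.91 ± 0.37 in rpl24b and 1.80 ± 0.24 in WT (SD, n = 3 each) differed by -0.89, or by -0.75 without WT replicate 2.

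For the distance of either coding paralog to the pseudogene copy the genotypes overlapped. RPS12A minus RPS12B was 3.11, 2.29 and 3.20 in rpl24b and 1.86, 1.39 and 2.401 in WT, a difference of 0.99, or 0.74 without WT replicate 2. RPS12C minus RPS12B was 4.28, 3.37 and 3.68 in rpl24b and 3.51, 3.46 and 4.06 in WT, a difference of 0.10. The sign of the last turned without rpl24b replicate 1 (-0.15) and without WT replicate 2 (-0.01).

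Other mRNAs for the small subunit were set beside the S12 genes, which are themselves part of that list. Of the 86 probe sets, 45 rose and 1 fell in TC by limma at an adjusted p under 0.05, and the one that fell was RPS12B. Over all probe sets 8.40% rose and 7.91% fell. The median change of the list was 0.38 against 0.03 over all probe sets. Without the S12 genes, 43 of 83 rose and 0 fell by limma at the same threshold. RPS12C, at 0.57, and RPS12A, at 0.45, thus stood above the list's median and RPS12B stood 0.42 below 0. The RPS2A, RPS2B, RPS2E and RPS2F probe set had a TC change of -0.435 that did not pass (adjusted p = 0.117). The 6 other pseudogene copies, from either subunit, had a median TC change of -0.04, with 2 higher, 4 lower and 0 passing. In PL 62 of 86 rose and 1 fell, where 10.8% of all probe sets rose and 7.87% fell, with a median of 0.54 against 0.00. The one that fell was a probe set shared by RPS2A, RPS2B, RPS2E and RPS2F (-0.44, adjusted p = 0.0358).

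In NP 23 of the 86 probe sets rose and 1 fell, with a median of 0.31 against 0.08 over all probe sets, and RPS12C, at 1.00, was among the 23. Over all 22746 probe sets 1186 rose and 771 fell in NP. In TL 7 of the 83 probe sets outside S12 rose and 1 fell, where 0.897% of all probe sets passed, and their median was 0.16 against -0.07. In the mutant's own TL, 46 of the 86 passed with PL higher and 12 with NP higher. Over all probe sets 18.8% passed with PL higher and 18.3% with NP higher. The median of the 86 was 0.52 against -0.04 for all probe sets. RPS12C, at 0.79, was above the median of the 86, and RPS12A and RPS12B were below it.

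**Figure D5:**
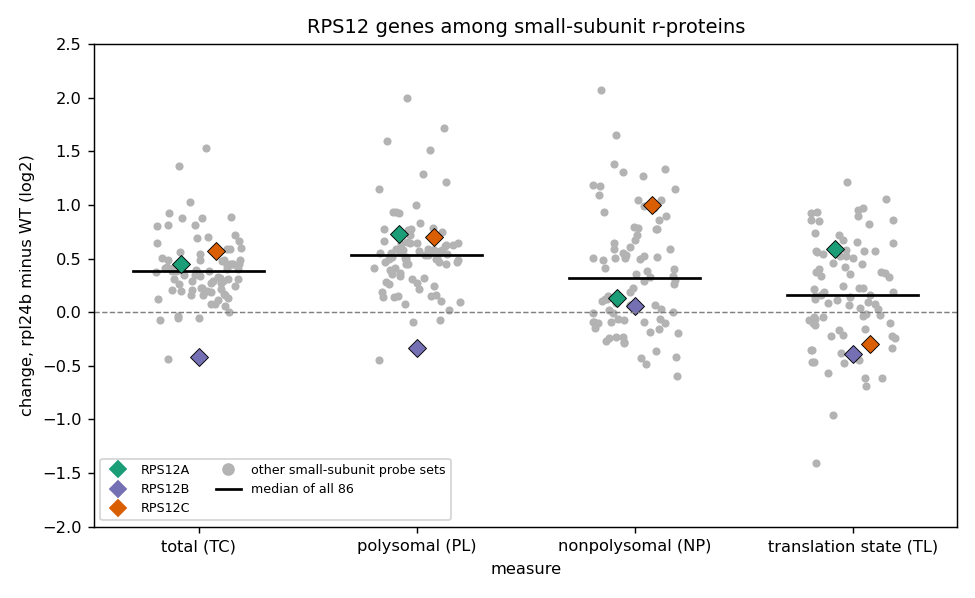
Change, rpl24b minus WT (log2), of the 86 small-subunit r-protein probe sets in TC, PL, NP and TL. Grey points are the other families, diamonds the RPS12 genes and black bars the medians, 0.38 in TC, 0.54 in PL, 0.31 in NP and 0.16 in TL. RPS12B is below 0 in TC and PL, apart from RPS12A and RPS12C.

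The neighbours of RPS12 in the beak are S10 and S27a, which is made as a fusion with ubiquitin. RPS27aA rose by 1.53 in TC (adjusted p = 5.47e-04), 1.998 in PL (adjusted p = 1.94e-06) and 2.07 in NP (adjusted p = 0.00394). Its TL was 0.80 ± 0.75 in rpl24b and 0.87 ± 0.16 in WT and did not pass as changed (-0.07, adjusted p = 0.943). Of the S10 genes, RPS10A rose in TC (0.45, adjusted p = 0.0439), while RPS10B (0.11) and RPS10C (0.23) did not pass. The S10 genes had TL changes of 0.37 for RPS10A, 0.58 for RPS10B and 0.37 for RPS10C, none of which passed, with mean TL values between -0.02 and 0.07 in rpl24b and between -0.60 and -0.30 in WT.

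RPS23, the cytosolic relative of the organellar RPS12 proteins, had 1 probe set shared by RPS23A and RPS23B. It rose in TC by 0.37 (adjusted p = 0.0356), and its TL was 0.57 ± 0.21 in rpl24b and 0.78 ± 0.16 in WT. The organellar genes are translated on other ribosomes and share only the name. The plastid locus pRPS12A rose in PL by 0.66 (adjusted p = 0.00707 by limma). Its changes of 0.87 in NP (adjusted p = 0.0548) and 1.16 ± 0.75 in TC (SE, adjusted p = 0.354) did not pass. Its TL was -0.11 ± 0.47 in rpl24b and 0.10 ± 0.57 in WT. The probe set shared by the plastid loci pRPS12B and pRPS12C had a TL of -0.65 ± 0.63 in rpl24b and -0.43 ± 0.43 in WT. The one of mitochondrial mRPS12 and mRPS7 had -0.64 ± 0.41 in rpl24b and -0.61 ± 0.25 in WT. None of the organellar probe sets came near the TL of RPS12B. The study cautions that its arrays favour polyadenylated RNA and that polyadenylation in organelles precedes degradation. The TL of organellar RNA is not read here as loading of cytosolic ribosomes.

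The likeness of TL patterns was measured as the root mean square difference over the 6 plant samples. It includes the WT values that selected the family and is a description, with no test. Nearest to RPS12A among the other 215 r-protein probe sets were RPS19A (0.0616), RPL14B (0.0917) and RPS14A (0.0948). RPS19A had mean TL values of -0.16 in rpl24b and -0.66 in WT, and RPL14B had -0.08 in rpl24b and -0.70 in WT. Nearest to RPS12C were RPS11A (0.152), RPL35aA (0.178) and RPS25B (0.202). RPS11A had 0.87 in rpl24b and 0.97 in WT.

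RPS12B had no close r-protein match. Its WT values set the lower end of the range that selected the family, so the choice favoured a large distance. The nearest was the probe set of the very short RPL41 mRNAs (RPL41E, RPL41D and RPL41G) at a distance of 0.840, with mean TL values of -2.05 in rpl24b and -1.97 in WT, followed by RPP0B at 1.39 and RPS15aA at 1.71. Over 6028 other probe sets with 1 named gene and a mean PL and NP signal at or above the median, the nearest to RPS12B was cox1, a mitochondrial gene for a subunit of cytochrome c oxidase, at 0.284 (-2.83 in rpl24b and -2.38 in WT). AT4G32240 at 0.292 and AT2G14460 at 0.315 came next. The limit given above for organellar RNA also applies to cox1. For RPS12A that wider search added AT4G16180 (0.0766), and for RPS12C it gave AT2G19680 (0.0828), AT5G47570 (0.119) and AT5G50100 (0.125).

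The genes beside each member on the chromosome were set against it, a comparison chosen after its values were seen. In the TAIR10.1 gene order RPS12A and RPS12B lie in similar surroundings, with FDM1 and CCR1 each 2 genes away from RPS12A, and FDM5 next to RPS12B with CCR2 2 genes away. On one side of RPS12B, AT1G80810 had a TL of -0.19 ± 0.22 in rpl24b and -0.13 ± 0.13 in WT and a TC change of -0.06 (adjusted p = 0.817). On the other side AT1G80780, 2 genes away, had a TL of -1.06 ± 0.22 in rpl24b and -1.15 ± 0.05 in WT. Both lay above the TL of RPS12B, -2.99 in rpl24b and -2.59 in WT. So did CCR2, with a TL of 0.16 ± 0.22 in rpl24b and 0.33 ± 0.14 in WT. Beside RPS12A, AT1G15920 had a TL of -1.32 ± 0.10 in rpl24b and -1.31 ± 0.15 in WT. On the other side of RPS12A, AT1G15940 had a TL of -0.21 ± 0.02 in rpl24b and -0.34 ± 0.66 in WT.

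RPS12C overlaps its neighbour AT2G32050 in that annotation. AT2G32050 had a TL of 0.12 ± 0.10 in rpl24b and 0.21 ± 0.17 in WT and a TC change of 0.09 (adjusted p = 0.622). The sequences of the probes were not analysed here, so whether RNA of one RPS12 gene adds to the signal of another was not tested.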

How the data were processed

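The authors read the ATH1 arrays with the affy package of Bioconductor and deposited RMA signals as log2 values. They also deposited a translation state per plant sample, the log2 ratio of PL to NP. Versions of RMA and affy and a genome build are not given in the sources used here. No global adjustment for polysome loading was made. TC arrays had medians of 5.34 to 5.41 and were fitted apart. Arrays of one group correlated at 0.982 to 0.996.

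TL was recomputed and differed from the deposited values by at most 0.001. Genotypes were compared over all 22746 probe sets by limma (version 3.58.1 under R 4.3.3; lmFit followed by eBayes), 3 samples each. A call needed a p under 0.05 after Benjamini-Hochberg adjustment, and the procedure was tested on simulated data. TL of rpl24b was tested against 0 in a group-means design that pooled the spread over both genotypes. Paralog differences in TC had an exact permutation test. Contrasts of the members' TL between genotypes were described only, although p-values of their paralog distances entered the adjustment. The platform list gave 13513 probe sets 1 symbol, 503 several and 8730 none, and r-proteins were named from the study's catalogue. CPC was not analysed here. RefSeq names (TAIR10.1) matched all 3 members.

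Named genes were the members, RPL24B, the S10, S27a, S23 and organellar S12 genes, pseudogene copies, nearest TL patterns and adjoining families. The members and lists were chosen with earlier results of these data known. The labels give each plant sample a replicate number, and same-numbered samples of both genotypes were taken as pairs. Their deviations from group means correlated at 0.14 to 0.39 in TC, 0.05 to 0.28 in PL, -0.19 to 0.06 in NP and -0.05 to 0.03 in TL, so a replicate block was an alternative. Others were centring each array, quantile normalization, eBayes with trend and robust, a filter on dim probe sets, the deposited TL and leaving out each replicate.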

Additional observations from a re-analysis of the deposited data

How the results depend on the processing

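With 3 plant samples per genotype, calls close to the threshold depended on single samples. In TC, leaving out each replicate gave 0.36 to 0.52 for RPS12A, -0.53 to -0.33 for RPS12B and 0.41 to 0.68 for RPS12C, with 2186 (without WT replicate 2) to 3012 calls over all probe sets against 3711. In NP it gave -0.0572 to 0.18 for RPS12B, 0.78 to 1.14 for RPS12C and 1166 to 1887 calls against 1957. The NP count was 1169 without rpl24b replicate 1, 1192 without replicate 2 and 1166 without replicate 3. In TL there were 61 to 220 calls against 204, with 69, 76 and 61 calls without rpl24b replicates 1, 2 and 3, and 90 and 103 without WT replicates 1 and 3. RPS12C minus RPS12B in TL differed between genotypes by -0.15 to 0.30. Centring each array reversed the NP changes of RPS12A (-0.0172) and RPS12B (-0.0922). That setting moved the median NP change of all probe sets to -0.08, against 0.08 as deposited, and that of TL to 0.05, against -0.07. Quantile normalization moved the TL of RPS12A in rpl24b to -0.34 (adjusted p = 0.0376). With trend and robust eBayes the TC change of RPS12B, -0.42, had an adjusted p of 0.0503. The replicate block brought the PL change of RPS12B, -0.33, to an adjusted p of 0.0449 and changed no other call on the members. The PL calls of RPS12A and RPS12C and the TL calls of RPS12B and RPS12C in rpl24b held in all 11 alternatives. The cause of the changed calls was not tested. Fewer samples enter each fit that leaves one out.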
